A study of Homo sapiens with 2 samples.

Results

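The major histocompatibility complex on the short arm of chromosome 6 was examined with its 7 alternative haplotype sequences in the hg19 build, named apd, cox, dbb, mann, mcf, qbl and ssto. All H3K4me3 regions lying on chr6:28477797-33448354 or on any haplotype sequence were taken, whatever their strength. They numbered 680 of 20567 regions in wild-type cells (3.31%) and 702 of 20509 in ZNF143 knockout cells (3.42%). Of these, 109 wild-type and 111 knockout regions lay on chromosome 6 itself, and 571 and 591 lay on haplotype sequences.

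The cells were HEC-1-B, an established human uterine adenocarcinoma line, either unaltered or lacking ZNF143, a zinc finger protein that binds many promoters. Chromatin was precipitated with the same H3K4me3 antibody in both, and each genotype was represented by 1 library with 1 list of peaks. The labels do not say whether the knockout is a single clone, by what method it was made, or whether the line carries other alterations. No difference between the genotypes has a replicate check, and none of the intervals below, all of 95%, covers variation between cultures or precipitations. Intervals of medians reflect the spread among regions, those of shares the number of regions, and those of single pair ratios the counting of fragments.

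H3K4me3, trimethylation of lysine on histone H3, is concentrated at the start sites of active genes. The class I section is named for molecules that show peptides on most nucleated cells, and the class II section holds the HLA-DR, HLA-DQ and HLA-DP genes, normally active in antigen-presenting cells and inducible in others through the coactivator CIITA. Class III lies between them, is dense in genes, and encodes complement factors, tumour necrosis factor and many proteins of general cell function. The complex is among the most variable parts of the human genome, and each haplotype sequence is another version of it.

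Each region carries 3 values of the authors' peak caller. These are the fold, which is the ratio of the signal at the summit to the local background, and the −log10 p-value and −log10 q-value of that excess. From the fold and the p-value the summit pileup was recovered, a count of the fragments that cover the highest point of the region. The knockout library was the deeper one. Over 16501 one-to-one pairs on the assembled chromosomes, knockout pileups were 1.86 times the wild-type ones at the median, and pairs are compared only after centring on that value. Regions are named by position and are not assigned to genes, because hg19 gene models were not used here. For the same reason the H3K4me3 level at ZNF143 itself and at cell type markers was not analysed here.

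Class III was the most densely marked section in both libraries. In wild-type cells it held 43 regions in 0.8 Mb, or 53.8 regions per Mb, and regions covered 3.85% of its length. Class I, from 29.6 to 31.4 Mb, held 35 regions, or 19.4 per Mb, covering 1.17%. Class II, from 32.2 to 33.4 Mb, held 27 regions, or 22.5 per Mb, covering 1.66%. The order was the same in knockout cells, with 51.3 regions per Mb and 4.31% covered in class III, 18.9 and 1.41% in class I, and 23.3 and 2.07% in class II. The stretch before class I held 3 wild-type and 7 knockout regions and the short remainder after class II held 1 region in each. As background on gene content, the RefSeq table of GRCh38.p14 lists 59 protein-coding genes from MCCD1 to NOTCH4 in class III, none of them an HLA gene. It lists 49 from HLA-F to MICB, of which 6 are HLA genes, and 18 from HLA-DRA to HLA-DPB1, of which 13 are. These runs of genes were not mapped to hg19, and the sections may extend beyond them.

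**Figure D1:**
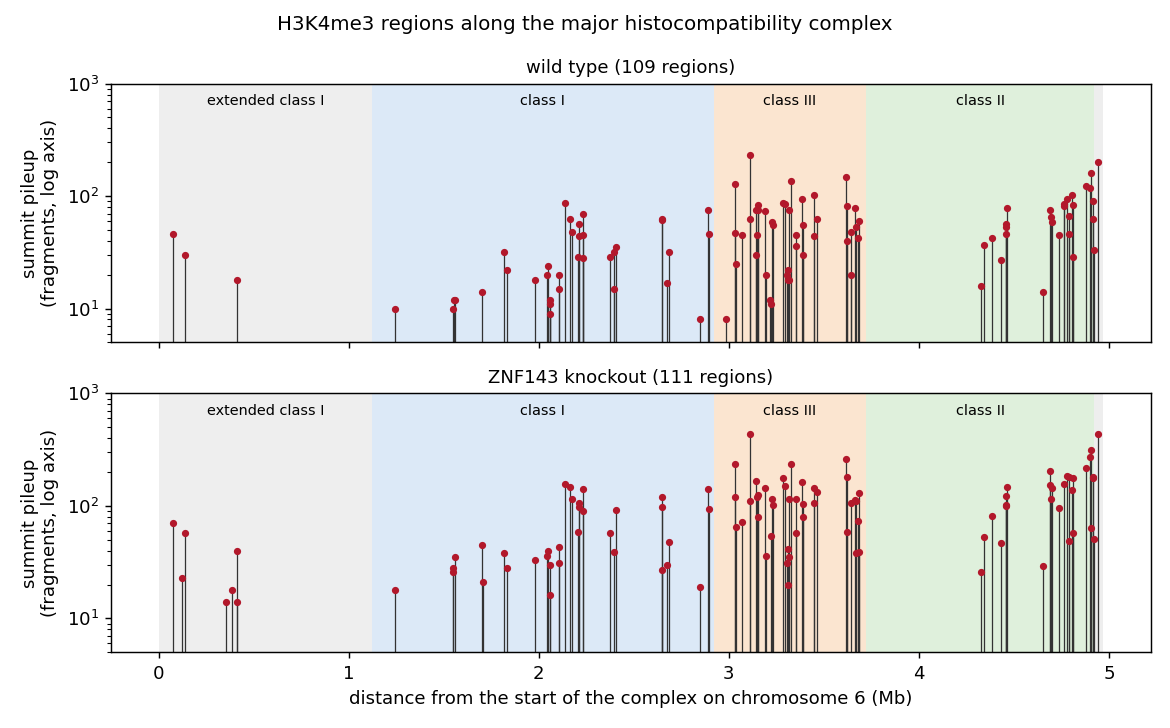
Each point is 1 H3K4me3 region on chromosome 6, placed by its distance from the start of the complex in Mb, with its summit pileup in fragments on a log axis; the shaded bands are the sections, and the upper and lower panels are the wild-type and knockout libraries. The points crowd in class III, where 43 wild-type and 41 knockout regions lie, and are absent from the first part of class II in both panels.

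Of the 3 classes, class I had the weakest regions. The few regions before class I had a median pileup of 30 in wild-type and 23 in knockout cells. Median pileup in wild-type cells was 28 fragments in class I (interval 17 to 35, range 8 to 86), 53 in class III (42 to 73, range 8 to 234) and 62 in class II (45 to 84, range 14 to 162). In knockout cells the medians were 41.5 (31 to 92), 111 (80 to 125) and 130.5 (81 to 176). The intervals of class I and class III were apart in wild-type cells and overlapped in knockout cells, and those of class II and class III overlapped in both. The authors' fold was also lowest in class I, with wild-type medians of 6.24, 7.94 and 8.35 in class I, III and II and knockout medians of 7.30, 8.76 and 8.68, but all the intervals overlapped. The median −log10 q-values were 14.2, 29.3 and 33.7 in wild-type cells and 24.0, 64.2 and 63.5 in knockout cells, and these grow with depth as well as with enrichment.

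Widths differed little between the sections. Median width in wild-type cells was 540 bp in class I (376 to 720), 650 bp in class III (512 to 774) and 781 bp in class II (387 to 1048). In knockout cells it was 634, 726 and 899 bp. Intervals overlapped between all sections within each library. Of the regions on chromosome 6, 25 of 109 were at least 1000 bp wide in wild-type cells (22.9%, 15.43 to 31.97%) and 35 of 111 in knockout cells (31.5%, 23.04 to 41.04%). The widest wild-type region, 1677 bp at chr6:33167559-33169235 in class II, had a pileup of 76. The widest knockout region was also in class II, 2087 bp at chr6:33265919-33268005, with a pileup of 181. Widest and highest were different regions in class I, class III and class II of both libraries.

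**Figure D2:**
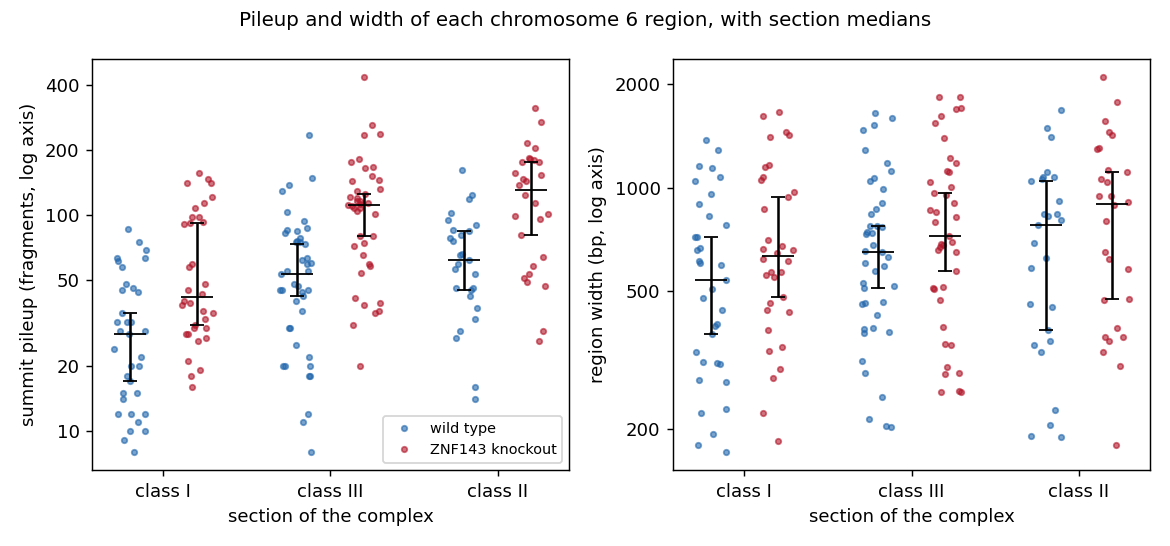
Points are the chromosome 6 regions of each section, with summit pileup in fragments (left) and width in bp (right) on log axes; black bars are medians with 95% intervals from the spread among regions, for the wild-type and knockout libraries side by side. Of these 3 sections, class I has the lowest median pileup in each library (28 and 41.5 fragments), while the width intervals of the sections overlap.

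Single chromosome 6 regions of the complex had lower pileups than regions elsewhere on the same chromosome. The haplotype sequences may share reads with the complex, and the part of this in the difference was not tested. The median pileup of the complex was 45 fragments in wild-type cells against 153 in the 867 regions on the rest of chromosome 6, and 93 in knockout cells against 279.5 in 860 regions. A median of 45 lies at percentile 22.7 of the wild-type regions on assembled chromosomes, and 93 at percentile 25.8 of the knockout regions. Only 2 regions of the complex in each library exceeded the median pileup of their whole list (197 and 355 fragments), whereas 31 in each exceeded the median fold. The assembled chromosomes include chromosome 6 but not the haplotype sequences, which hold further versions of the same regions.

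The highest chromosome 6 pileups of class III were at the same places in both libraries. The region at chr6:31588513-31589504 had 234 fragments in wild-type cells and 434 in knockout cells, with folds of 23.4 and 22.5. It was followed by chr6:32095355-32096004 with 148 and 260 fragments, and by chr6:31802475-31803651 with 137 and 238. In class II the leading region was chr6:33384886-33385933, with 162 and 313 fragments. The next were at chr6:33359612-33360451 with 124 and 216, and chr6:33378494-33379332 with 118 and 270. All 3 lay in the last part of the section. In class I no region passed 86 fragments in wild-type cells, the value at chr6:30614942-30615901, and the same place led in knockout cells with 156.

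Bare stretches fell at nearly the same places in the libraries. The longest on chromosome 6 began before class I and ran for 828.8 kb, from 28891706 to 29720514, in wild-type cells and for 828.2 kb in knockout cells. The longest in class II followed the last regions of class III and ran for 641.9 kb, chr6:32164391-32806285, in wild-type cells and for 641.6 kb in knockout cells. In class I the longest were 307.6 kb, chr6:29720824-30028397, and 242.9 kb, chr6:30882688-31125620, and the knockout values were 307.7 and 243.0 kb. In class III the longest was 154.5 kb in wild-type and 154.4 kb in knockout cells.

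Stretches of at least 100 kb with no region made up 76.2% of class I, 66.2% of class II and 23.8% of class III in wild-type cells. In knockout cells the shares were 77.6%, 66.2% and 37.3%. The larger class III share rested on 1 weak region: the region at chr6:31462267-31462514, with a pileup of 8 in wild-type cells, had no knockout counterpart, so that a knockout stretch grew to 136.6 kb. Over all gaps between neighbours, long stretches included, the median in wild-type cells was 5.26 kb in class III, 7.97 kb in class II and 15.6 kb in class I. In the RefSeq order the class II genes begin with a run of 7 HLA genes, HLA-DRA to HLA-DQB2. The run is followed by HLA-DOB and then by TAP2, PSMB8, TAP1 and PSMB9, genes of the machinery that prepares peptides for class I molecules.

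Most regions on the haplotype sequences corresponded to regions on chromosome 6. Counts of regions ranged from 38 on apd to 100 on cox in wild-type cells and from 39 on apd to 112 on cox in knockout cells. Whether each haplotype sequence is complete across the complex was not analysed here, so a missing region need not mean a missing mark. Median pileups per haplotype ran from 39 to 53.5 in wild-type and from 67 to 93 in knockout cells, close to the 45 and 93 of chromosome 6. By order, spacing and width, without the strength of the signal, 497 of 571 wild-type haplotype regions (87.0%) and 504 of 591 knockout regions (85.3%) were matched to a chromosome 6 region of the same library. The matching was made separately in each library, and of 381 paired haplotype regions matched in both, 374 (98.2%) went to the same chromosome 6 pair. Paired regions overlap in position, so this share describes repeatability and cannot show that a match is right. Regions matched in only 1 library are not in it. Of the 109 wild-type regions on chromosome 6, 103 had at least 1 copy and 45 had 6 or 7; of the 111 knockout regions, 107 had at least 1 and 46 had 6 or 7.

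Copies of 1 site had similar pileups. The median log2 ratio of a copy to its chromosome 6 region was 0.00 in both libraries, and 407 of 497 wild-type copies (81.9%) and 431 of 504 knockout copies (85.5%) were within 1.5-fold. At 90 sites with at least 4 values, the standard deviation over copies on the log2 scale had a median of 0.24 in wild-type and 0.20 in knockout cells. The medians of these sites varied among themselves with a standard deviation of 0.88 and 0.94, so that a site differed from other sites by more than its copies differed from each other. The variance of the pileups over their mean had a median of 0.97 and 1.28, where a Poisson count has a value of 1. Copies share a library and may share reads, so they are not replicates. The haplotype sequences belong to the reference build, and which versions the cells carry was not analysed here. Similar pileups are therefore not read as agreement of marking between haplotypes.

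The tightest site in both libraries was the class III region at chr6:31802475-31803651. Its pileups in wild-type cells were 137 on chromosome 6, 143 on apd, 132 on cox, 144 on dbb and 143 on qbl. In knockout cells they were 238, 261, 263, 263 and 251. No region was matched to it on mann, mcf or ssto. In wild-type cells these sequences had no match at any site from chr6:31783551 to 31803651. Whether they hold sequence there was not analysed here. The highest copy exceeded the median of the others by a factor of 1.03 in each library.

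A minority of sites were uneven. At 13 of 90 sites in each library the highest pileup was at least 2 times the median of the other copies, and 7 of the 13 lay in class I in each. Of 73 sites that could be compared in both libraries, 10 were uneven in wild-type cells, 11 in knockout cells and 9 in both. The highest sequence was the same in both libraries at 5 of these 9. The sites with the largest spread in both libraries were in class I. One was chr6:31324309-31324488, with a standard deviation over copies of 1.48 in wild-type and 0.94 in knockout cells on the log2 scale. Its wild-type pileups were 8 on chromosome 6, 13 on mcf, 79 on qbl and 35 on ssto. Its knockout pileups were 19 on chromosome 6, 21 on cox, 69 on mann, 40 on mcf and 78 on ssto. Neither the sequences matched nor the highest one were the same, but the matching was made separately in each library. A wild-type mann region of 29 fragments, whose knockout partner had 69, was left unmatched. The difference is therefore not read as one of marking. The other was chr6:30875951-30876730, with standard deviations of 1.47 in both. There dbb had 352 fragments in wild-type cells against 32 on chromosome 6, 29 on cox, 29 on mann, 31 on mcf and 25 on qbl. The knockout region at the same place had 392 fragments on dbb and 29 to 40 on the other sequences. The neighbouring region at chr6:30882093-30882687 was also highest on dbb, with 102 fragments against 32 to 46 on the others in wild-type cells and 210 against 73 to 128 in knockout cells. In both libraries dbb was the sequence set apart at these neighbouring places.

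Chromosome 6 itself was the outlying copy at the highest region of class III. At chr6:31588513-31589504 its pileup of 234 in wild-type cells stood against 59 to 84 on 6 haplotypes, and its 434 in knockout cells against 114 to 153. At chr6:31508685-31509726 the high sequences were chromosome 6 and ssto, with 129 and 126 fragments in wild-type cells and 234 and 239 in knockout cells. The other copies at that site had 45 to 71 and 95 to 114. The high sequences at these 2 sites were the same in both libraries. At chr6:31371376-31372035 in class I mann had 220 fragments against 46 to 76 in wild-type cells and 79 against 93 to 135 in knockout cells. That knockout mann region overlapped no wild-type region. In knockout cells mann had 413 fragments at the neighbouring chr6:31367535-31369185, against 125 to 152 on the other sequences. No wild-type mann region was matched there. The matching may have given mann to different neighbours in each library, so these values show no change of the high sequence.

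At 2 class II sites, chosen after their values were seen, the copies fell into sets that were the same in both libraries. At chr6:32861722-32863119 the wild-type pileups were 97 on apd, 101 on mcf and 95 on ssto. Chromosome 6, cox, dbb, mann and qbl had 42, 45, 40, 43 and 47 there. In knockout cells apd, mcf and ssto had 167, 185 and 189, and the others had 75 to 86, so that the sets did not overlap in either library. At the region closing the long bare stretch, chr6:32806286-32806512, wild-type pileups were 41 on apd, 58 on dbb, 51 on mcf and 62 on ssto. Chromosome 6, cox, mann and qbl had 16, 15, 21 and 28. In knockout cells the first 4 had 88, 106, 96 and 88 fragments and the others 26, 34, 40 and 43. The sets at these places differ by dbb alone, and the sequence identity behind them was not analysed here. At another class II site, chr6:32937994-32938184, mann was highest in both libraries. It had 92 fragments against 30 to 53 in wild-type cells and 229 against 88 to 106 in knockout cells. At chr6:33291112-33291300 the highest sequence was dbb with 49 fragments in wild-type cells and ssto with 145 in knockout cells. No ssto region was matched there in wild-type cells, so the libraries cannot be compared on ssto at that site.

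**Figure D3:**
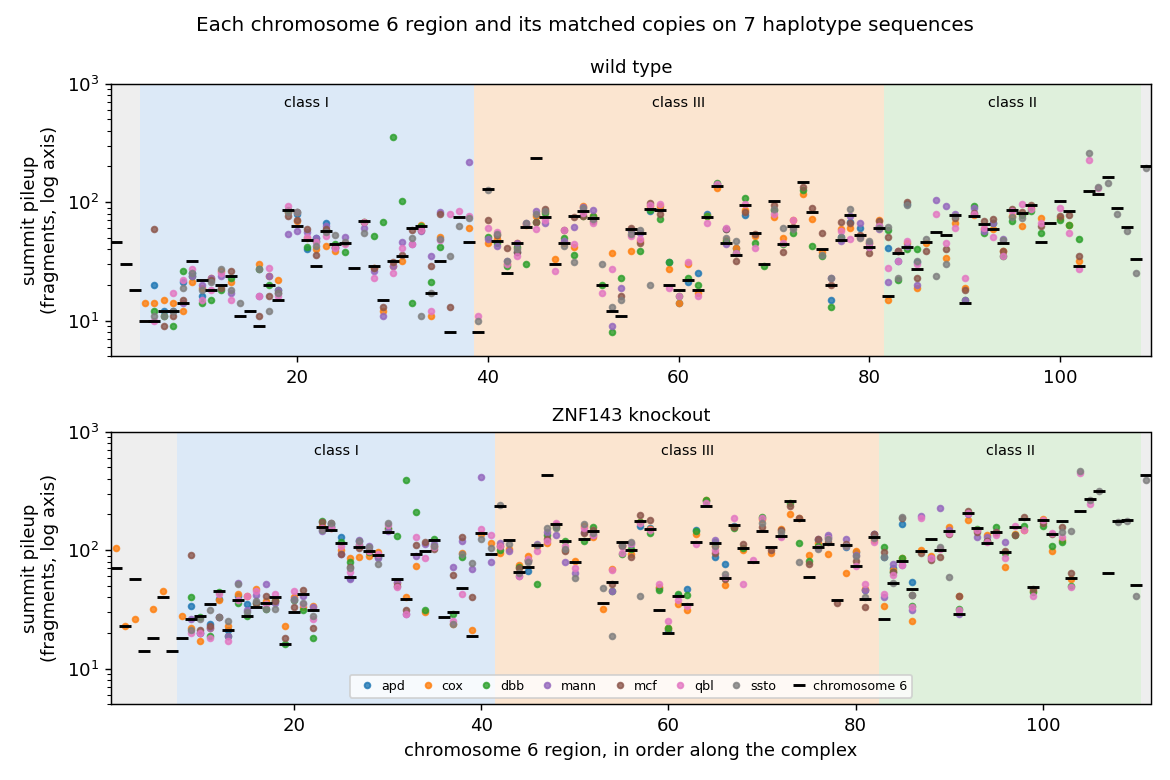
Chromosome 6 regions are in order along the complex, with their summit pileup in fragments on a log axis as black dashes and the pileups of matched copies as points coloured by haplotype, for the wild-type (upper) and knockout (lower) libraries. Most copies lie close to their dash, and the dbb point at 352 fragments and the chromosome 6 dash at 234 stand apart in the wild-type panel, as do those at 392 and 434 in the knockout panel.

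The pileups of each site were also added over chromosome 6 and all its copies. Such a sum of up to 8 values can only lie at or above the chromosome 6 value, so its rank is a description. The median sum was 292 fragments in wild-type and 531 in knockout cells, at percentiles 63.5 and 63.2 of the pileups on assembled chromosomes. By this sum 68 sites in each library exceeded the list median, against 2 by the chromosome 6 pileup alone. Median sums in class I, III and II were 159, 348 and 303 in wild-type cells and 295.5, 727 and 629 in knockout cells. Class III thus had the highest median sum, while class II had the highest median chromosome 6 pileup. The median number of copies was 6, 5 and 4 in both libraries. The class II regions starting at 33384886, 33359612 and 33378494 had 1, 2 and 2 in wild-type cells. How reads that align equally well to several copies were placed is not given in the sources used here, and its part in the low pileup of single copies was not tested.

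The matching, made separately in each library, left some haplotype regions without a counterpart on chromosome 6, 33 in wild-type and 38 in knockout cells. A further 20 wild-type and 32 knockout unmatched regions were placed on or beside a chromosome 6 region, and 21 and 17 could not be placed. Several of the 33 and 38 lay in the stretches that were bare on chromosome 6. The stretch chr6:29720824-30028397 in class I corresponded to 12 wild-type regions on 6 haplotypes, with pileups of 10 to 119, and to 11 knockout regions on 6 haplotypes, with 17 to 284. The wild-type count holds 2 mann regions of uncertain placement, of 17 and 16 fragments. The knockout partner of the first had 26 fragments, the value of the mann copy matched to chr6:30028361-30028911 in that library. The class I stretch chr6:31166251-31324308 corresponded to 4 wild-type and 5 knockout regions, 1 per haplotype, with pileups of 16 to 220 and 15 to 511. In contrast, no haplotype region of either library was placed in the 145.4 kb, 144.0 kb and 139.6 kb bare stretches of class I. The same held for the 154.5 kb stretch of class III.

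The strongest of these regions was on mcf at positions 2619810 to 2620466, in class I, with 220 fragments in wild-type cells and 511 in knockout cells. The next was on cox at 1333707 to 1334275, with 119 and 284 fragments and folds of 30.2 and 32.3. The third was on qbl at 1202660 to 1203674, with 99 and 191 fragments. All 3 exceeded every chromosome 6 region of class I in both libraries. A knockout ssto region of 140 fragments at 4420789 to 4421915, in class II, was also counted here, but its wild-type partner of 77 fragments was matched to the chromosome 6 region starting at 32940254, so its placement is uncertain. A wild-type cox region of 60 fragments at 2884059 to 2884680 and a mann region of 29 at 2670788 to 2671428 were counted too. Their knockout partners, of 114 and 69 fragments, were not so counted, and their placement is uncertain as well.

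The long bare stretch of class II was marked on dbb and ssto. On dbb, regions at 3911192 to 3912194 and 3912712 to 3913115 had 37 and 42 fragments in wild-type cells. On ssto, regions at 4061352 to 4062245 and 4063005 to 4063248 had 43 and 39. They lay at matching distances from the region that closes the stretch, 176.0 and 174.8 kb before it on dbb and 175.3 and 174.0 kb on ssto. The distances differ by under 1 kb between the haplotypes, and whether these are versions of the same places was not tested by sequence. Another dbb region at 3896791 to 3896994 had 23 fragments, a mann region at 4071219 to 4071417 had 16 and an ssto region at 3571076 to 3571239 had 11. In knockout cells that mann region was not listed, and there were weak regions of 20 fragments on mann and 17 on qbl. Between midpoints, they lay 59.4 and 59.5 kb after the matched region that precedes the stretch. The ssto region of 26 fragments lay 59.3 kb after it. No region of either library was placed in this stretch on apd, cox or mcf.

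The pileups of these 4 regions on dbb and ssto were higher in the knockout library after centring. The dbb regions had 118 and 128 fragments in knockout cells, centred log2 ratios of 0.78 (0.24 to 1.35) and 0.71 (0.20 to 1.25). The ssto regions had 117 and 125, ratios of 0.55 (0.03 to 1.09) and 0.79 (0.26 to 1.34). The authors' folds, each relative to the local background of its own library, were closer. They were 9.50 in wild-type and 10.9 in knockout cells, and 10.8 and 11.8, on dbb, and 10.6 and 9.56, and 9.74 and 10.3, on ssto, so 1 of the 4 was lower in the knockout. All 4 intervals of the pileup ratio lay above 0, where 0 stands for the median pair of the assembled chromosomes, but the regions were singled out after their values were seen. The third dbb region had 23 and 38 fragments (−0.17, −0.95 to 0.64) and the remaining ssto region 11 and 26 (0.35, −0.72 to 1.51), both with intervals across 0. For 28 paired haplotype regions the wild-type matching gave no chromosome 6 counterpart, and some of these are of uncertain placement. Over these 28 the median was 0.18, with 19 above 0, 6 intervals above 0 and none below. The other 2 intervals above 0 were those of the mcf region (0.32, 0.09 to 0.56) and the cox region (0.36, 0.05 to 0.68). Over all 495 haplotype pairs, which include these regions, 28 intervals lay above 0 and 8 below. Of 89 pairs on chromosome 6, 2 lay above and 2 below. The 4 intervals on dbb and ssto may come from versions of the same places and are not independent.

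**Figure D4:**
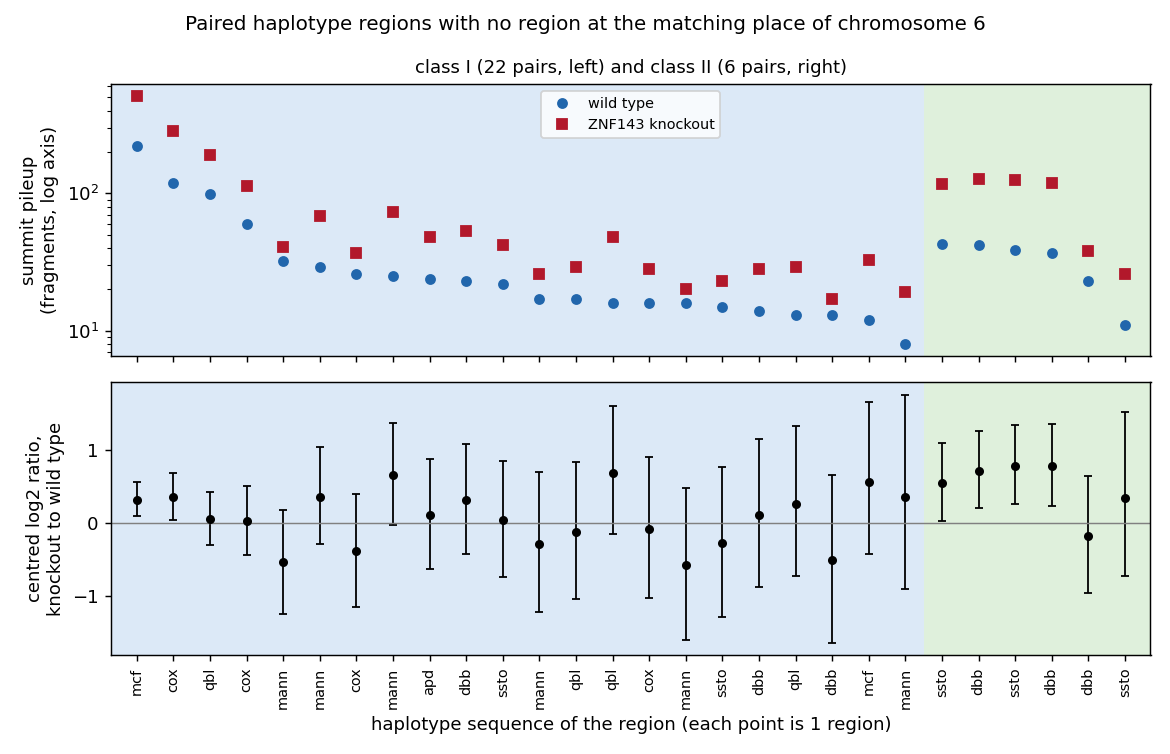
Shown are the 28 paired haplotype regions to which the wild-type matching gave no chromosome 6 counterpart, 22 in class I and 6 in class II. Summit pileups are in fragments on a log axis for both libraries (upper). Centred log2 ratios of knockout to wild type have 95% counting intervals (lower). The 4 leftmost class II points, from ssto and dbb, lie at 37 to 43 fragments in wild-type and 117 to 128 in knockout cells, and their intervals lie above 0.

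Nearly all wild-type regions of the complex were also present in the knockout list. On chromosome 6, 108 of 109 overlapped a knockout region (99.1%, Clopper-Pearson 94.99 to 99.98%), and on the haplotypes 561 of 571 did (98.2%, 96.8 to 99.2%). The background of wild-type regions without overlap was 5.55% on the assembled chromosomes outside the complex, against 1 of 109 and 10 of 571 here. The unshared wild-type regions were weak, with 8 fragments on chromosome 6 and 8 to 16 on the haplotypes.

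In the other direction, 100 of 111 knockout regions on chromosome 6 (90.1%, 83.0 to 94.9%) and 535 of 591 on the haplotypes (90.5%, 87.9 to 92.8%) overlapped a wild-type region. The background of knockout regions without overlap was 9.67%, so the 11 and 56 unshared regions were close to what the other chromosomes gave. The strongest on chromosome 6 were at chr6:31632449-31632737 with 80 fragments, chr6:33386270-33386449 with 64 and chr6:33265403-33265706 with 49. Each lay within 1000 bp of a wild-type region, at 301, 336 and 265 bp. The strongest on the haplotypes, with 90 fragments on cox, 86 on qbl and 85 on mann, lay 644, 362 and 252 bp from one. The strongest unshared knockout regions thus adjoined regions already present in wild-type cells.

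Pileups of the complex kept pace with the rest of the genome. The median centred log2 ratio of knockout to wild type was 0.05 (−0.02 to 0.12) in 89 pairs on chromosome 6 and 0.06 (0.03 to 0.09) in 495 pairs on the haplotypes. It was 0.06 (0.04 to 0.07) in 728 pairs on the rest of chromosome 6, and 0.15 (0.11 to 0.19) in the 136 of these within 5 Mb of the complex. The haplotype value is thus no larger than that of the rest of the chromosome, and both are small. By section the medians were 0.08 in 29 pairs of class I, −0.01 in 34 of class III and 0.05 in 22 of class II, with every interval across 0.

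Few pairs lay past 1.5-fold. On chromosome 6, 3 of 89 pairs were higher in the knockout (3.37%) and 2 lower (2.25%), and on the haplotypes 25 of 495 were higher (5.05%) and 14 lower (2.83%). The background over pairs of the assembled chromosomes was 7.11% higher and 6.45% lower, above each of these shares. The haplotype pairs hold up to 7 versions of 1 place and are not independent. Knockout regions were wider than their wild-type partners in 78.7% of pairs on chromosome 6 and 83.0% on the haplotypes, as in 82.2% of all pairs.

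The highest centred ratios on chromosome 6 were at chr6:30180594-30181100, with 14 fragments in wild-type and 45 in knockout cells (centred log2 ratio 0.79), at chr6:30035040-30035211 with 12 and 35 (0.65), and at chr6:33395486-33395872 with 62 and 179 (0.64). Only the last had an interval above 0 (0.21 to 1.08). The lowest were at chr6:31789401-31789781 with 18 and 20 fragments (−0.74), chr6:30294050-30295123 with 32 and 38 (−0.65) and chr6:30312982-30313357 with 22 and 28 (−0.55), all with intervals across 0. All but the one in class II rested on wild-type pileups of 32 or fewer.

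On the haplotypes the lowest ratios were on dbb at 4189880 to 4190179, with 40 and 34 fragments (−1.13, −1.83 to −0.43), on qbl at 2460996 to 2462026, with 48 and 43 (−1.05, −1.68 to −0.43), and on dbb at 1879311 to 1879478, with 18 and 18 (−0.89, −1.92 to 0.13). The highest were on cox at 138255 to 138544, with 7 and 26 fragments (1.00, −0.24 to 2.45), on dbb at 1322173 to 1322472, with 12 and 40 (0.84, −0.12 to 1.91), and on apd at 1965848 to 1966973, with 40 and 130 (0.81, 0.28 to 1.36). As extremes among 495 pairs, these values are a description of the spread.

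**Figure D5:**
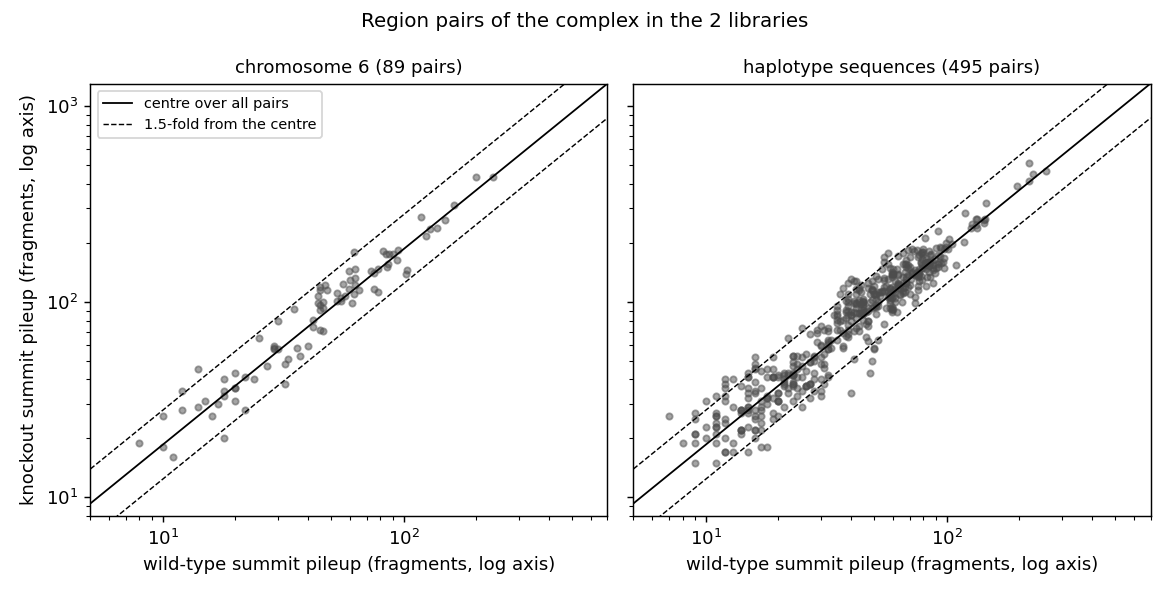
Each point is a pair of overlapping regions, with wild-type summit pileup on the horizontal axis and knockout summit pileup on the vertical axis, both in fragments on log axes, for 89 pairs on chromosome 6 and 495 on the haplotype sequences. The solid line is the median ratio of all pairs on the assembled chromosomes, 1.86, and the dashed lines lie 1.5-fold from it; most points lie between the dashed lines.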

How the data were processed

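The deposited peak lists, 1 per library and without a header, had the 10 columns of the narrowPeak layout. The submitters' processing notes name Bowtie2, MACS2, SAMtools 1.12 and deepTools, and the build GRCh37 (hg19), with no settings. Column 7 was read as the authors' fold (a ratio), column 8 as the deposited −log10 p-value and column 9 as the deposited −log10 q-value. The deposited score was 10 times column 9 without decimals and was not used further. Positions are printed counted from 1. Whether a control library was used, and total read counts, are not given in the sources used here.

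The pileup was solved from fold = (pileup + 1)/(rate + 1) and a Poisson upper tail at the local background rate. All regions were solved, with relative errors of the p-value column of at most 1.76e-05 (wild type) and 2.67e-05 (knockout). The lowest rates, a measure of relative depth, were 1.40 and 3.25 fragments. The solving step was also run on simulated regions (390 wild-type, 407 knockout), and 100% of their pileups were recovered. This checks the solving step alone.

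A region belonged to the section holding its midpoint. Overlap meant at least 1 bp. One-to-one pairs were centred on the median of all pairs on the assembled chromosomes. Haplotype regions were chained to chromosome 6 by order, spacing (within 1 kb) and width (within 4-fold). In simulated haplotypes this found 97.7% (wild type) and 97.3% (knockout) of true matches, and 0.22% and 0.17% of matches were wrong. The simulated haplotypes lost regions singly at random, while real ones lacked matches over runs of neighbouring sites. These rates may therefore not hold for the real matches. With 1 library per genotype no test was made. Intervals are exact: binomial for medians, Clopper-Pearson for shares and conditional binomial for pairs.

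The regions and sections were chosen with earlier results of these data known. Named were, per section, the 3 highest and the widest regions and the 2 longest bare stretches, and over the complex the 3 highest and 3 lowest pair ratios, the 3 strongest unshared and haplotype-only regions, and the sites of largest and smallest spread. The sums over copies, the 2-fold limit for uneven sites, the other uneven sites named and the haplotype regions placed in bare stretches were chosen after values were seen. No sequences are printed, and gene lists and cell type markers were not used here, since no hg19 sequence or gene models were used. Computation used scipy 1.17.1, pandas 2.3.3, matplotlib 3.10.9 and numpy 2.4.6 under Python 3.11.15.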

Additional observations from a re-analysis of the deposited data

How the results depend on the processing

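No paired analysis was possible because there was only 1 library of each genotype, which also left no replicate to omit. Of 166 values recomputed under alternatives for 66 results, 143 stayed, 21 moved and 2 changed sign. All 66 recomputed with regions of −log10 q of at least 5 stayed, as did the 36 with regions placed by their summit. Merging regions within 1 kb raised the median width to 1044 bp in class I and 1158.5 bp in class III of wild-type cells, and to 1161, 1390 and 1119 bp in class I, III and II of knockout cells. A reciprocal overlap of 50% lowered the shared share to 79.8% (wild type) and 78.4% (knockout) on chromosome 6, and to 84.6% and 81.7% on the haplotypes. Counting regions within 1 kb as overlapping raised the knockout shares to 97.3% and 96.8%. Centred on the rest of chromosome 6, the median log2 ratio became −0.016 on chromosome 6 and −0.005 on the haplotypes. As a shift of fold percentile, it was 1.47 and 2.00 points. At 2-fold, 0 pairs were higher and 0 lower on chromosome 6, and 0 higher and 2 lower on the haplotypes. With spacing held to 200 bp, 29 wild-type and 30 knockout regions had 6 or 7 copies. With a 3-fold limit, added after seeing the data, 7 wild-type and 3 knockout sites were uneven. The causes of these moves were not tested beyond what each alternative changes by construction. Pileups under about 20 fragments leave wide intervals.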
